A study of Salmo salar with 51 samples.

Results

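The step from 35 to 41 days post fertilization (dpf) takes an Atlantic salmon from an embryo inside its egg membrane to a free alevin that still carries its yolk sac. The study's methods place hatching between these 2 days. Hatching ends the shelter of the egg membrane, so skin, gills and mucous surfaces meet open water, oxygen must be taken up and carried in a larger and more active body, and the eyes are put to use. Salmon also replace embryonic blood with red cells of later generations that make other hemoglobin chains, and their immune genes come on step by step through early life. The comparison asks which transcripts differ in whole individuals on the 2 sides of hatching. The later fish are also older, so hatching and the growth between the 2 days cannot be told apart here.

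RNA came from 3 whole, untreated individuals at 35 dpf and 3 at 41 dpf, all of the McConnell (Mowi) strain of Salmo salar, fertilized together and raised in fresh water. Each individual was labelled with Cy5 and hybridized to 1 array of salmonid oligonucleotides, beside a Cy3-labelled pool of all 17 time points, and the dyes were not swapped. These are 6 of the 51 arrays of the series. Every value below is a log2 ratio of an individual to that pool, and a change is the mean at 41 dpf minus the mean at 35 dpf. In RNA from whole bodies, fewer cells of a type and less RNA per cell cannot be told apart.

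Of 43689 probes on the array, 10206 were kept because Cy5 reached 500 or more, with no flag, throughout the 3 arrays of 35 dpf or throughout those of 41 dpf. Of the kept probes 6790 passed on both days, 3053 only at 41 dpf and 363 only at 35 dpf. The array of 35 dpf replicate 1 was the dimmest, with a median Cy5 signal of 199 and 7542 probes at 500 or more, while on the other 5 arrays the median lay between 219 and 327. A name was at hand for 2752 kept probes. The 6 arrays lay on 6 different slides, so slide and day cannot be separated within the 6 arrays alone. Over 9676 probes, the root mean square distance between 2 arrays averaged 0.528 within 35 dpf, 0.623 within 41 dpf and 0.605 between the days (log2 scale). The array nearest to 35 dpf replicate 2 was 41 dpf replicate 2, at 0.462, and the array nearest to 41 dpf replicate 3 was 35 dpf replicate 3, at 0.528. The arrays of the 2 days thus did not form separate groups, and what follows concerns a small number of probes.

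Between 35 and 41 dpf, 99 probes changed by at least 2-fold with an unadjusted limma p of at most 0.01, which is 0.97% of those tested. At 41 dpf 81 were higher (0.794%) and 18 were lower (0.176%). Without the minimum fold, 147 probes had a p of at most 0.01, where 102.1 would have that p if none differed, so the threshold alone is a weak filter. With Benjamini-Hochberg adjustment over the 20964 probes fitted, 15 probes passed (0.147%). All 15 were higher at 41 dpf, and the lowest adjusted p of any fall was 0.181. Of the 99 called probes 89 had values that did not overlap between the days, against 10.1% of all kept probes. The calls were made on these same values, so the lack of overlap is no separate support for them. The filter bears on the direction. It keeps a probe that is dim on 1 day and bright on the other, whichever the day, and drops one that is dim on both. But 3053 probes were kept only through 41 dpf and 363 only through 35 dpf. All 3 arrays of a day had to pass, and the dim array of 35 dpf replicate 1 had 7542 probes at 500 or more. Its share in the uneven numbers was not tested. Of the 81 rises 63 passed the filter only through the 41 dpf arrays. Among probes that passed on both days, 24 were called (0.353%), 16 higher and 8 lower, and 1 of them passed the adjusted threshold. Among probes that passed only at 41 dpf, 2.13% were called. The median change was -0.049 for probes that passed on both days and 0.19 for those that passed only at 41 dpf. The median change of all kept probes was 0.0025, and 50.3% of them lay higher at 41 dpf.

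Of the 99 called probes 45 have a name, 38 higher and 7 lower, which is 1.64% of the 2752 tested probes with a name. The calls in each gene list below stand beside that share, and a short list without a call is near it. The names come from the lists the study published with its comparisons of time points. For 15 of the 45 the name stands in the list drawn up from these same 6 arrays, and their calls are not independent of that list. These include hbb, hbb4, urod, PDE6G, Gnat2, S100A11, MPZL2, pdlim3, GATA-6, the MHC probes C007R144 and C125R048, the histone H1 probes C148R053 and C075R038 and the TIMP2 probe C211R161, and the counts of their gene groups hold them. The other 30 are named elsewhere only, 1.1% of the 2733 tested probes of that kind.

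Hemoglobin gave the strongest rise. Hemoglobin carries oxygen in red cells and is built from alpha and beta chains. The beta chain probe hbb C026R038 read -3.44, -3.36 and -3.64 on the 3 arrays of 35 dpf and -0.62, 0.41 and 0.67 on those of 41 dpf. The 2 days stood far apart, and 41 dpf replicate 1 was the lowest of its day. The change was 3.63 ± 0.41 (SE, n = 3 per day), or 12.4-fold, with an adjusted p of 1.48e-06. The second beta probe, hbb4 C021R112, rose from -1.66 ± 0.31 to 0.23 ± 0.27 (SD, n = 3 per day), 3.71-fold, with an adjusted p of 0.0112, and its values did not overlap either. Both beta probes were kept only through 41 dpf and both are in the list of this comparison. Their rise was called under every alternative processing that kept them.

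Over the whole series, hbb C026R038 went from a mean of -5.82 at 10 dpf to its highest mean, 2.27, at 47 dpf, where 1 of the 3 spots was flagged and 2 were used, and hbb4 C021R112 peaked there as well, at 2.17. Both had an early high at 20 dpf, with means of -2.91 for C026R038 and -1.20 for C021R112, and stood at -3.70 and -2.93 at 30 dpf. The 4 named alpha chain probes were not kept, since none reached 500 on all 3 arrays of either day. Their mean ratios went the other way or stayed level. hba4 C087R156 had a mean of -1.07 at 35 dpf and -2.35 at 41 dpf, the HBAD probes C062R154 and C225R074 went from -0.59 to -1.44 and from -0.18 to -0.70, and hba C057R153 was at -2.54 on both days. Those 4 probes were not tested, and their Cy5 signals ran from 98 to 1366 over the 6 arrays.

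Heme, the iron-holding group of hemoglobin, is made in a chain of enzyme steps. Uroporphyrinogen decarboxylase is 1 of these enzymes, and its probe urod C220R170 read -1.39, -0.84 and -1.20 at 35 dpf and 0.31, 0.98 and 0.40 at 41 dpf. That rise was 3.26-fold, with an adjusted p of 0.0116, and all 3 values of 41 dpf lay above 0 and all 3 of 35 dpf below. The probe was kept only through 41 dpf. Its Cy5 signals were 220.5, 561.5 and 567 at 35 dpf and 928.5, 2432 and 638.5 at 41 dpf. The second urod probe, C169R055, changed by 0.22 ± 0.29 (SE) and was not called. Over the series both urod probes were highest at 20 dpf, with means of 2.19 (C220R170) and 1.89 (C169R055). The mean of C220R170 at 41 dpf was 0.56. The 2 probes were not tested against each other. Among the 15 tested probes for heme synthesis and red cells, C220R170 was the only one called, and the median change was 0.065. The 5 probes of alas2, the erythroid enzyme of the first step, had changes from -0.85 (C109R141) to -0.59 (C013R054), none of them called. The 3 probes of ALAD, the enzyme of the next step, had changes of 0.46, 0.59 and 0.62 (C142R087, C061R168 and C197R073), also not called. RHAG C191R064, a Rhesus-associated membrane protein of red cells, rose by 1.01 ± 0.34 (SE), with an adjusted p of 0.489, and was kept only through 41 dpf.

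**Figure D1:**
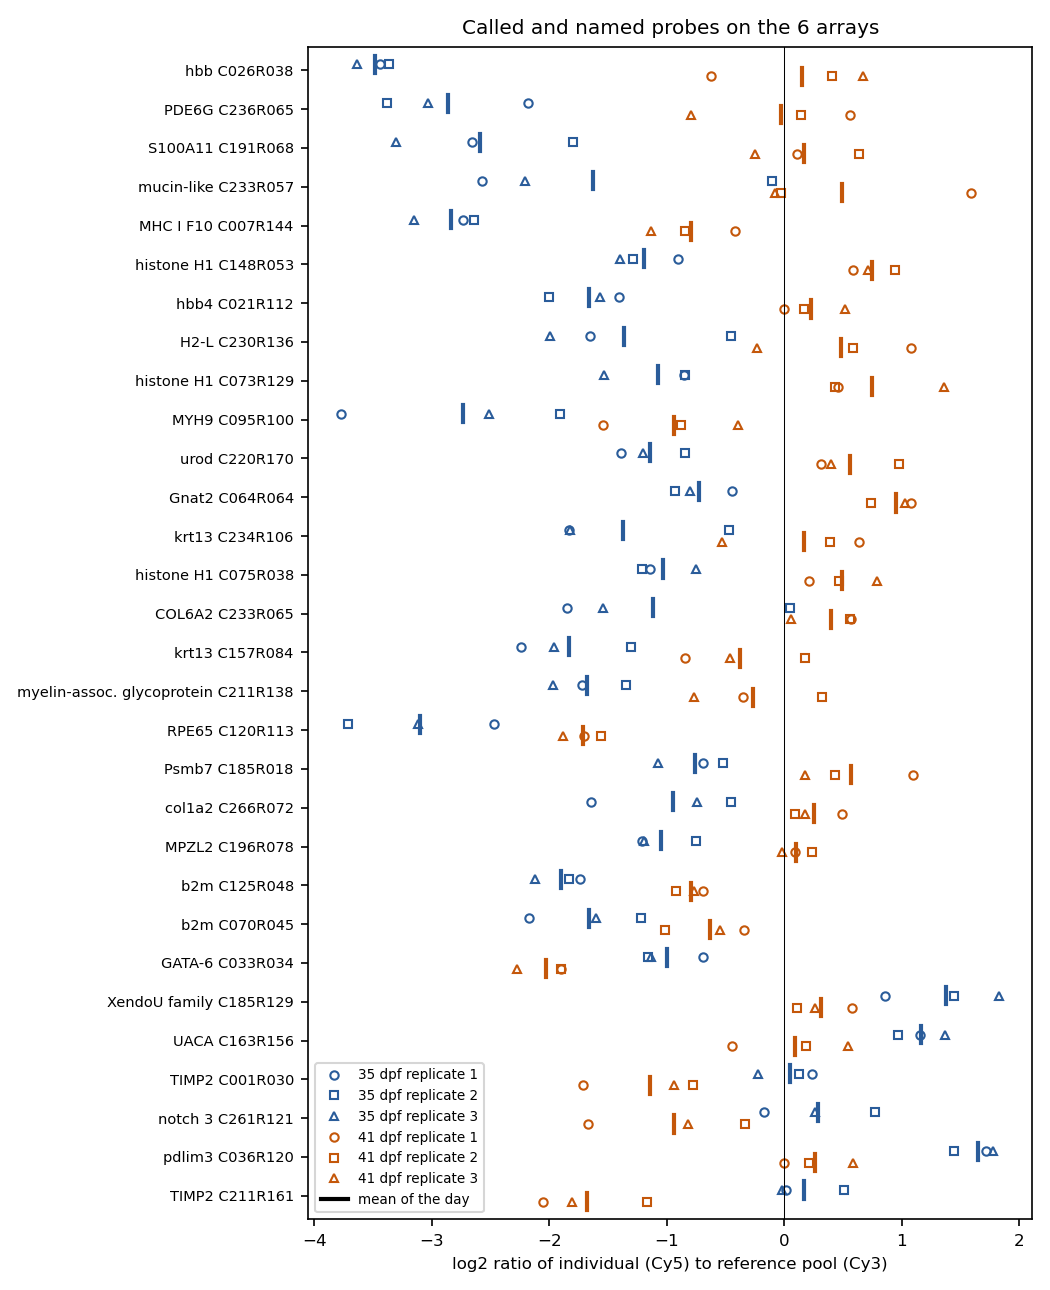
Log2 ratio of individual to reference pool (horizontal) on each of the 6 arrays for 30 called probes named by the rule (vertical, largest rise at the top), of whose 23 rises 20 were kept only through 41 dpf. Blue is 35 dpf and orange is 41 dpf, circles, squares and triangles are replicates 1, 2 and 3, and vertical bars are means of 3 individuals. For hbb C026R038 all values of 35 dpf lie at or below -3.36 and all of 41 dpf at or above -0.62, while for the mucin-like probe C233R057 replicate 2 of 35 dpf, at -0.10, almost touches the lowest 41 dpf value of -0.08.

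Among 4 tested photoreceptor and pigment epithelium probes 3 were called higher, 1 of them with an adjusted p under 0.05. In the retina, light activates a G protein (transducin) that switches on a phosphodiesterase, and the pigment epithelium regenerates the visual pigment. PDE6G C236R065, the inhibitory gamma subunit of the rod phosphodiesterase, read -2.18, -3.38 and -3.03 at 35 dpf and 0.56, 0.14 and -0.79 at 41 dpf. The change was 2.83 ± 0.58 (SE), 7.13-fold, with an adjusted p of 0.0243. Gnat2 C064R064, the alpha subunit of cone transducin, rose 3.18-fold, from -0.72 ± 0.25 to 0.95 ± 0.19 (SD, n = 3 per day), with an adjusted p of 0.0814. RPE65 C120R113, the isomerase of the pigment epithelium, read -2.47, -3.71 and -3.12 and then -1.70, -1.56 and -1.88, a change of 1.39 ± 0.43 (SE) with an adjusted p of 0.389.

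The ratios of the 2 days did not overlap for any of these 3 probes. The Cy5 signals of Gnat2 C064R064 did overlap. They were 328, 454.5 and 3814 at 35 dpf, and 1327, 1344 and 1624 at 41 dpf. The 3 probes are the called members among 4 tested probes of the retina list, whose median change was 1.5. RPE65 lost its call without 35 dpf replicate 2 (a change of 1.08 for C120R113) and without 41 dpf replicate 2 (1.31), and Gnat2 C064R064 lost it in the Cy5 channel alone, at 0.77. The fourth tested member of the retina list, PDE6D C083R041, a carrier of prenylated proteins that also occurs outside the eye, changed by 0.48 and was not called. All 4 tested members were kept only through 41 dpf. Over all probes kept that way the median change was 0.19 and 2.13% were called. The other 4 probes of the list stayed under the filter and were not tested. The mean ratio of rod transducin C017R056 went from -3.49 to -2.62 and that of GNGT1 C263R129 from -2.25 to -2.23. For RDH8 C108R166 it went from -0.93 to -0.80 and for RDH12 C061R061 from -0.76 to -0.54. Both PDE6G C236R065 and RPE65 C120R113 had their highest means long after the interval, 1.89 and 1.69 at 83 dpf, whereas Gnat2 C064R064 was highest at 47 dpf, with a mean of 1.23. The crystallins, the proteins of the transparent lens, had 0 of 12 tested probes called and a median change of -0.14, or 0.1 with median centring in place of loess. Gamma-crystallin M3 C012R113, bright on every array with Cy5 between 7783 and 28056, changed by 0.01 ± 0.48 (SE).

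MHC class I molecules show peptides from inside the cell to T cells, and each pairs a heavy alpha chain with beta-2-microglobulin. Of 3 heavy chain probes 2 rose. The probe for an F10-like alpha chain, C007R144, read -2.73, -2.64 and -3.15 at 35 dpf and -0.42, -0.84 and -1.13 at 41 dpf, 4.13-fold higher with an adjusted p of 0.0112. H2-L C230R136, named for a mouse alpha chain, rose from -1.36 ± 0.81 to 0.48 ± 0.66 (SD, n = 3 per day), with an adjusted p of 0.0551. In C230R136 the highest value of 35 dpf was replicate 2, at -0.45, and the lowest of 41 dpf was replicate 3, at -0.23, so the gap between the days was narrow.

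Beta-2-microglobulin was represented by 15 tested probes, and 2 of them were called. C125R048 rose from -1.90 ± 0.20 to -0.79 ± 0.12 (SD, n = 3 per day) and C070R045 from -1.66 ± 0.48 to -0.63 ± 0.34, by 1.10 and 1.03, with adjusted p values of 0.330 and 0.517. The call on C125R048 was lost without 35 dpf replicate 3 (a change of 0.99), and that on C070R045 without either of 35 dpf replicates 1 and 3 or 41 dpf replicates 1 and 3 (0.78 to 1.06). The other 13 b2m probes had changes between 0.45 (C119R077) and 1.04 (C236R070), all above 0 and none called. These 15 probes target the same family and may bind each other's transcripts, so they are not 15 separate measurements. Over the list, 18 of 18 tested probes lay above 0, 4 were called higher and the median change was 0.85, against 0.0025 for all kept probes. Of these 18 probes 12 were kept only through 41 dpf, and the median change of all probes kept that way was 0.19. The lowest of the 18, HLA-B C038R011, changed by 0.07.

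Along the series, b2m C125R048 was highest at 2 dpf, with a mean of 2.42, lowest at 20 dpf, with -3.64, and climbed again from 30 dpf (-2.42) to 89 dpf (1.13). The F10-like probe C007R144 had no such early maximum and was highest at 89 dpf, with a mean of 1.58. The proteasome makes the peptides that MHC class I molecules carry. Of its 21 tested probes only Psmb7 C185R018, for subunit beta 7, was called, and the median change was 0.12. Psmb7 C185R018 was under 500 on all 3 arrays of 35 dpf, so its rise is given as a bound. In the Cy5 channel after loess and Aquantile scaling, its mean at 41 dpf was 945. That was at least 1.44-fold above the larger of its own signal and the floor at 35 dpf (655.9). Such a bound compares 1 channel across arrays and is open to dye bias, and it has no p of its own. The call rests on the limma change of the log2 ratio, 1.33 ± 0.38 (SE), with an adjusted p of 0.334. Without 41 dpf replicate 1 the call was lost, at a change of 1.07. The other 2 tested beta 7 probes, PSMB7 C229R134 and C031R125, changed by 0.25 and -0.03. Psmb7 C129R124 and C142R153 were under the filter and untested. Their mean ratios went from -1.53 to 0.16 and from -0.82 to -0.04.

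The complement proteins, which attack microbes in plasma, showed no called probe among 14 tested. C3 C231R017 and C4A C197R020, the 2 brightest, changed by 0.27 ± 0.50 and 0.21 ± 0.30 (SE), within the spread of their arrays. Changes in the list ran from -1.14 ± 0.43 (complement factor I, CFI C052R154, with an adjusted limma p of 0.604) to 0.89 ± 0.48 (C4 C235R054), with 8 of 14 above 0.

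S100A11, a small calcium-binding protein found in epithelia and other tissues, read -2.66, -1.80 and -3.30 at 35 dpf and 0.11, 0.64 and -0.25 at 41 dpf with probe C191R068. On both days replicate 2 was highest and replicate 3 lowest, and the days did not overlap. The rise of C191R068, a probe kept only through 41 dpf, was 6.73-fold, with an adjusted p of 0.000901. A second S100A11 probe, C195R027, was already at 0.69 ± 0.53 at 35 dpf and changed by 0.27. The 2 probes were not tested against each other, and which salmon copy each one binds is not given in the sources used here.

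Carbonic anhydrase, ion channels and the beta subunits of the sodium pump serve the salt and acid-base balance of gill and skin cells. The 8 probes described here for these proteins and a taurine carrier had no call, and their changes ran from -0.25 (KCNJ10 C049R050) to 0.80 (atnb233 C222R020), with 5 of the 8 above 0.

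Keratin 13 and a mucin-like protein, products of surface epithelia, rose in part of their probes. The mucin-like probe C233R057 read -2.57, -0.10 and -2.21 at 35 dpf and 1.59, -0.03 and -0.08 at 41 dpf. Replicate 2 of 35 dpf lay next to 2 of the 41 dpf values, and the change of 2.12 ± 0.74 (SE) had an adjusted p of 0.517. The call was lost without 35 dpf replicate 1 (1.65) or 3 (1.83), without 41 dpf replicate 1 (1.57), and with slide as a fixed block, where the change of C233R057 was 1.06. The other 3 tested probes with the same description, C108R111, C206R118 and C203R162, had changes of 1.64, 1.54 and 1.18 that were not called. C233R057 and these 3 were all kept only through 41 dpf. The mucin-2 probes C001R029 and C122R047 changed by -0.26 and 0.04, not called. Under the filter and untested, the mucin-like probes C106R006 and C260R140 went from -2.29 to -3.31 and from -0.88 to -0.6. MUC5AC C005R129, also untested, went from -0.64 to 0.36.

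Of 5 tested krt13 probes, C234R106 rose by 1.54 ± 0.43 and C157R084 by 1.46 ± 0.40 (SE), with adjusted p values of 0.304 and 0.277. The values of C234R106 overlapped in 1 pair, replicate 2 of 35 dpf at -0.47 and replicate 3 of 41 dpf at -0.53. Leaving out 41 dpf replicate 1 ended the call on C234R106 (1.30), and leaving out 41 dpf replicate 2 that on C157R084 (1.18). The remaining krt13 probes C235R149, C263R081 and C121R057 had changes of 0.41, 0.21 and -0.10, the second from 2 unflagged arrays of 35 dpf. Altogether 3 of 25 tested epidermal and mucosal probes were called, all higher, against 1.64% of all tested probes with a name. Of the 25 probes 8 were kept only through 41 dpf, the called C233R057 and C157R084 among them. Over all probes kept that way 2.13% were called and the median change was 0.19. The median change of the list was 0.086, and 11 of the 25 lay below 0 (7 with median centring). Among those below 0, none called, were keratin 78 C146R038 (-0.89), envoplakin EVPL C138R056 (-0.88) and periplakin Ppl C125R148 (-0.65). Keratins 8 and 18, the simple epithelial pair, had no called probe. MPZL2 C196R078, an adhesion protein of epithelia, rose by 1.16 ± 0.38 (SE), with an adjusted p of 0.463, and was kept only through 41 dpf. Its call was lost without 35 dpf replicate 1 (1.08) or 3 (1.09) and without 41 dpf replicate 1 (1.16) or 2 (1.08).

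Histone H1 binds the DNA between nucleosomes and comes in variants made at replication and variants of resting cells. The list split in 2. The 3 probes described only as histone H1 rose, and they were the 3 of 12 tested probes kept only through 41 dpf. The other 9 passed on both days, so the split follows the filter as well as the variant. Over all probes kept only through 41 dpf the median change was 0.19 and 2.13% were called. C075R038 read -1.14, -1.21 and -0.75 at 35 dpf and 0.21, 0.47 and 0.79 at 41 dpf, 2.87-fold higher with an adjusted p of 0.00628. C073R129 went from -1.07 ± 0.39 to 0.75 ± 0.53 and C148R053 from -1.20 ± 0.26 to 0.74 ± 0.18 (SD, n = 3 per day), with adjusted p values of 0.0397 and 0.0968. Both were under 500 on all 3 arrays of 35 dpf, and in the Cy5 channel they were at least 2.09-fold (C073R129) and 2.21-fold (C148R053) higher at 41 dpf. None of the 3 probes had overlapping values.

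The other 9 probes are for the variants H1FX and h1f0, the latter known from resting cells. All 9 had changes below 0, from -0.59 (C120R046) to -0.23 (C141R143), and none was called. With median centring 1 of the 9 lay above 0, and none lay above the median of the kept probes, which that scaling moves by 0.2. This left the list median at -0.37, below 0, although each call was a rise. Over time C148R053, C073R129 and C075R038 moved together, with their highest means at 20 dpf (2.01, 1.81 and 1.5) and a second high at 47 dpf (1.65, 1.81 and 1.20). Probes for the cell cycle and DNA replication had 0 of 12 calls and a median change of 0.15. zmcm6-B C253R107, a licensing factor of replication, changed by 0.08 ± 0.35 (SE). RFC2 C230R117, a subunit of the clamp loader of replication, lay outside that list and rose by 1.69 ± 0.50, with an adjusted p of 0.334. It was kept only through 41 dpf.

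**Figure D2:**
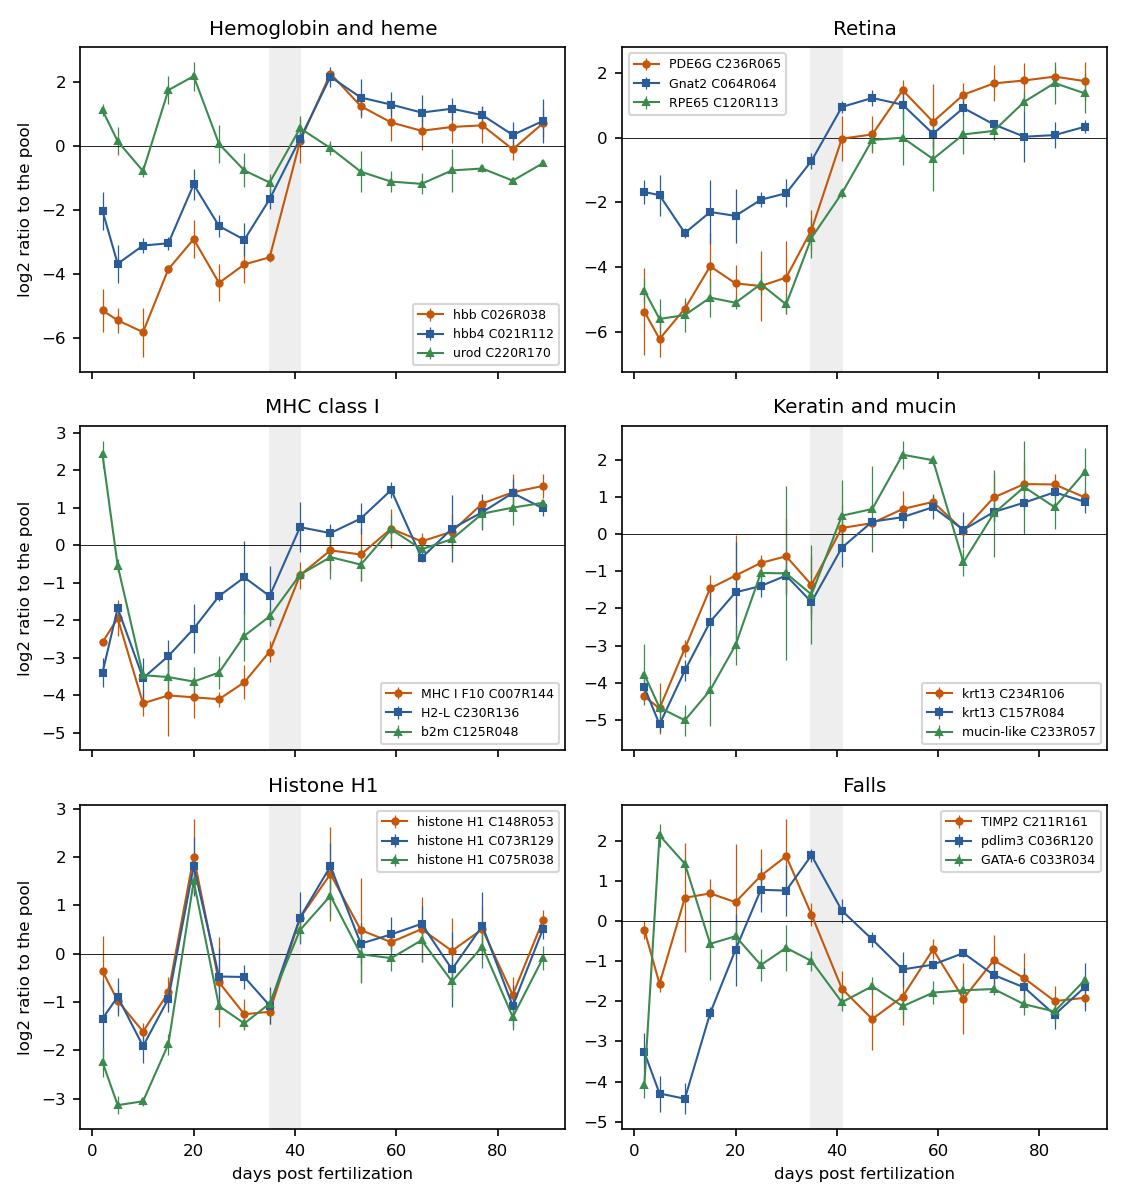
Mean log2 ratio to the reference pool (vertical) against age in days post fertilization (horizontal) for 18 probes in 6 panels, with bars of 1 SD over 3 individuals, or over 2 where a spot was flagged (hbb C026R038 at 47 dpf among them), and the step from 35 to 41 dpf shaded. hbb C026R038 goes from -3.48 at 35 dpf to 0.15 at 41 dpf and 2.27 at 47 dpf, histone H1 C148R053 has highs at 20 and 47 dpf, and TIMP2 C211R161 goes from 1.63 at 30 dpf to -1.68 at 41 dpf.

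The collagen and matrix list held 2 called probes and the muscle list 1. Collagen VI chain COL6A2 C233R065 read -1.85, 0.05 and -1.54 and then 0.57, 0.56 and 0.06, a rise of 1.51 ± 0.55 (SE) with an adjusted p of 0.560, in which replicate 2 of 35 dpf matched the lowest 41 dpf array. Without 35 dpf replicate 1 or 3 (1.15 and 1.30) or 41 dpf replicate 1 or 2 (1.43 each) C233R065 was no longer called. C233R065 was kept only through 41 dpf. Collagen I chain col1a2 C266R072 rose by 1.20 ± 0.41, with an adjusted p of 0.517, and lost its call without 35 dpf replicate 1 (0.85), 41 dpf replicate 1 (1.08) or 41 dpf replicate 3 (1.23). A second COL6A2 probe, C225R048, changed by -0.17, and the 2 other tested col1a2 probes, C189R156 and C125R170, by 0.23 and -0.20. Of 27 tested collagen and matrix probes C233R065 and C266R072 were the 2 called, against 1.64% of all tested probes with a name. The median change of the list was 0.012. P4HA2 C206R112, an enzyme that hydroxylates collagen, rose by 1.10 ± 0.35, with an adjusted p of 0.449, and was kept only through 41 dpf.

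Contractile proteins of muscle had 77 tested probes, a median change of -0.06 and 1 call. That call was MYH9 C095R100, a non-muscle myosin that the pattern for myosins had taken in, and it was kept only through 41 dpf. C095R100 read -3.77, -1.91 and -2.51 at 35 dpf and -1.54, -0.88 and -0.39 at 41 dpf, 3.46-fold higher with an adjusted p of 0.334, and its call was lost without 35 dpf replicate 1 (1.27) or 41 dpf replicate 3 (1.52). No other probe of this list was called. PDLIM3 C036R120, a Z-disc protein of muscle outside the list, was called lower and is described below. Between 30 and 47 dpf 31 of the 77 listed probes were called higher and 4 lower, against 5.46% and 3.1% of all kept probes. The 2 intervals were not tested against each other.

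In the nervous system list, 2 of 14 tested probes were called, with a median change of 0.00041. One was MPZL2, the epithelial adhesion protein above. The other was C211R138, for myelin-associated glycoprotein, a cell adhesion protein of myelin sheaths, which went from -1.68 ± 0.31 to -0.27 ± 0.55 (SD, n = 3 per day), 2.66-fold higher with an adjusted p of 0.412. C211R138 was kept only through 41 dpf. Without 35 dpf replicate 3 (1.27) or 41 dpf replicate 2 (1.12) it was not called. The neuronal genes gap43 C078R050 and snap25a C134R083 had changes of -0.58 and -0.22, not called. Liver plasma proteins had 0 of 17 calls and digestive enzymes 0 of 3. The apolipoprotein B probes C206R138 and C011R035 changed by 0.03 and -0.27, bile salt-activated lipase CEL C073R092 by -0.04 and acidic chitinase CHIA C010R051 by -0.07.

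The falls were fewer and smaller. TIMP2 inhibits matrix metalloproteinases, enzymes that cut collagen and other matrix. Its probe C211R161 read 0.02, 0.51 and -0.02 at 35 dpf and -2.05, -1.17 and -1.81 at 41 dpf, and C001R030 read 0.24, 0.13 and -0.22 and then -1.71, -0.78 and -0.94. Neither probe had overlapping days, and 41 dpf replicate 1 was the lowest of all in both. C211R161 fell by 1.85 on the log2 scale and C001R030 fell by 1.19, with adjusted p values of 0.334 and 0.450. C001R030 lost its call without 35 dpf replicate 1 (-1.09) or 2 (-1.14) and without 41 dpf replicate 1 (-0.90), and with slide as a fixed block its change was -0.62. The other 2 tested TIMP2 probes were not called, with changes of -0.43 for C114R067 and 0.13 for C156R092, and 5 more were under the filter. Among these 5, C037R043 had mean ratios of -0.69 and -2.15, untested.

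PDLIM3, a Z-disc protein of muscle with PDZ and LIM domains, fell with probe C036R120 from 1.72, 1.45 and 1.78 to 0.00, 0.21 and 0.59. The SD at 35 dpf was 0.17, the days did not overlap, and the change was -1.38 ± 0.36 (SE), with an adjusted p of 0.198. Along the series C036R120 had its highest mean, 1.65, at 35 dpf itself and sank to -2.33 at 83 dpf. The second PDLIM3 probe, C086R093, changed by -0.02.

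GATA-6, a transcription factor of heart and gut, went from -0.99 ± 0.26 to -2.02 ± 0.22 (SD, n = 3 per day) with probe C033R034, an adjusted p of 0.334, and was the 1 called member of 16 tested homeobox, forkhead, GATA and SOX factors. The list's median change was -0.41, with 4 of 16 above 0 (7 of 16 with median centring). sox3 C132R131, a factor of neural progenitors, had a change of -0.90, short of 2-fold. In the other direction, gata3 C248R075 had a change of 1.08 ± 0.47 (SE), with an adjusted p of 0.719, and was not called. notch 3 C261R121, a receptor of cell-to-cell signalling, fell by 1.22 ± 0.40 (SE), and UACA C163R156, a coiled-coil protein with ankyrin repeats, fell by 1.07 ± 0.38. C185R129, matched only to the XendoU endoribonuclease family, fell by 1.06 ± 0.36. Their adjusted p values were 0.458, 0.551 and 0.489. All 4 of these calls depended on single arrays. Without 41 dpf replicate 1 the changes of C261R121 and C163R156 were -0.86 and -0.80, without 35 dpf replicate 2 that of C261R121 was -0.98, and without 35 dpf replicate 3 those of C185R129 and C163R156 were -0.84 and -0.97. C163R156 was also lost without 35 dpf replicate 1 (-1.07) or 41 dpf replicate 2 (-1.12), C185R129 without 35 dpf replicate 2 (-1.03) or 41 dpf replicate 2 (-0.96) or 3 (-1.03), and C033R034 without 35 dpf replicate 1 (-0.88) or 41 dpf replicate 3 (-0.91). Of 17 probes for Hox genes, which pattern the body axis, only hoxa3a C244R015 was kept, and it changed by 0.09 ± 0.47.

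**Figure D3:**
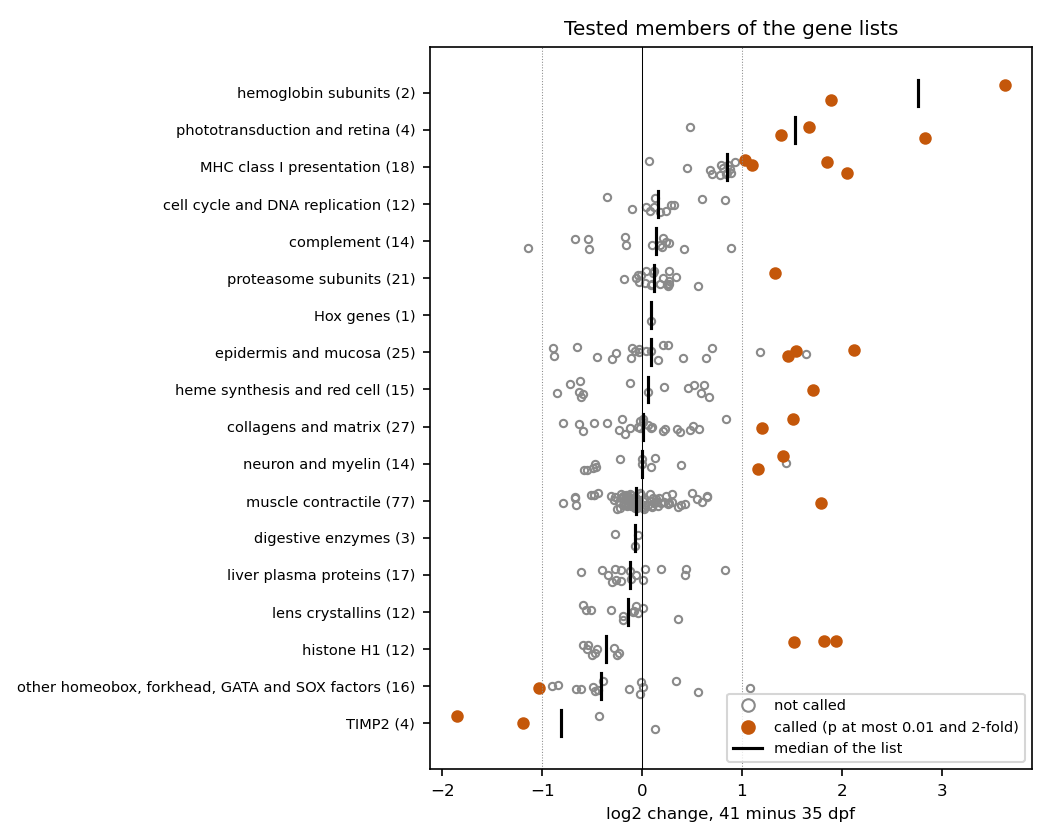
Log2 change from 35 to 41 dpf (horizontal) of the tested members of 18 gene lists (vertical, number of tested probes in brackets), with called probes filled, others open, and a black bar at each list's median. All 18 MHC class I probes lie above 0, and 76 of 77 muscle probes are not called. The histone H1 list holds 3 called rises, all kept only through 41 dpf, beside 9 probes below 0.

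Called probes without a name numbered 54, of which 43 rose and 11 fell. Among the 15 that passed the adjusted threshold 6 had no name. The largest of them, C247R109, C163R056 and C096R113, rose by 3.37 ± 0.57, 2.79 ± 0.44 and 2.70 ± 0.42 (SE), with adjusted p values of 0.0116, 0.000901 and 0.00435. C247R109 and C096R113 were so bright at 41 dpf that 2 and 1 of their 3 spots there were saturated and flagged, so the fit used 1 and 2 arrays of that day. Both were kept through 35 dpf and have no value for 47 against 30 dpf, since all 3 spots were flagged at 47 dpf. In all, 4 of the 99 called probes had a flagged spot on the 6 arrays. C202R019, C157R039 and C035R152 rose by 2.28, 2.23 and 1.69. No sequence or annotation for these probes was used here, so nothing further can be said of what they measure.

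In the rises, the individuals of a day did not contribute alike. At 35 dpf, replicate 1 was the lowest of its day in 43 of the 81 rises and replicate 2 the highest in 55. At 41 dpf, replicate 3 was the lowest in 42 and replicate 1 the highest in 35. Replicate 2 of 35 dpf thus lay nearest to the older fish in most of these probes, as it did over the whole profile, and the number of calls went up when it or 41 dpf replicate 3 was left out. Without 35 dpf replicate 2, 201 probes were called, without 41 dpf replicate 3 173, and without 35 dpf replicate 1, the dimmest array, 64.

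Other settings ended calls too. With slide as a fixed block the rises no longer called were RPE65 C120R113 (a change of 1.29), Psmb7 C185R018 (1.18), b2m C070R045 (1.02), MPZL2 C196R078 (1.09), COL6A2 C233R065 (1.07), col1a2 C266R072 (1.02) and the myelin-associated glycoprotein C211R138 (1.24), besides the mucin-like C233R057 above. The falls of GATA-6 C033R034 (-0.65) and UACA C163R156 (-0.74) were lost there as well as that of TIMP2 C001R030. The methods' t-test did not call RPE65, H2-L, Psmb7, b2m C070R045, the mucin-like probe, either krt13 probe, MYH9, COL6A2, col1a2, histone H1 C073R129 or C211R138 among the rises, nor UACA, notch 3, TIMP2 C001R030 or C185R129 among the falls. Median centring ended the calls on COL6A2, MPZL2 and b2m C070R045 (1.49, 1.14 and 1.18) and on all the named falls but TIMP2 C211R161 and pdlim3. In the Cy5 channel alone b2m C125R048 (0.97), col1a2 (1.05), GATA-6, UACA, C185R129 and TIMP2 C001R030 were not called.

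The days on either side, 30 and 47 dpf, were measured on 6 other arrays and show how the same probes stood over a longer span around hatching. Between them 8.56% of the kept probes were called, 5.46% higher and 3.1% lower at 47 dpf. Of 79 probes that rose from 35 to 41 dpf and had a value here, 35 were called higher at 47 than at 30 dpf and 4 were called lower. Of the 18 falls 7 were called lower and 0 higher. Of the 81 rises 63 had passed the filter only through 41 dpf. For all probes kept that way, the share called between 30 and 47 dpf was not computed. The 5.46% over all kept probes is therefore not a matched share for the rises. The median change of the rises was 1.09 in this longer comparison, against 1.41 between 35 and 41 dpf, and that of the falls was -0.421, against -1.08. Both comparisons come from 1 fit and share its estimate of spread and the reference pool, but no array. They do share slides, since 35 and 47 dpf replicate 1 lay on 1 slide and 41 and 30 dpf replicate 1 on another. With slide as a fixed block 24 probes were called in the same direction in both, against 42 without it.

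Named probes differed in how they stood over the longer span. hbb C026R038, hbb4 C021R112 and RPE65 C120R113 were higher at 47 than at 30 dpf by 5.97 ± 0.46, 5.10 ± 0.36 and 5.10 ± 0.43 (SE), the last of these well beyond its change of 1.39 in the shorter interval. PDE6G C236R065, Gnat2 C064R064, S100A11 C191R068, the F10-like chain C007R144 and histone H1 C075R038 were higher there by 4.43, 2.95, 2.66, 3.52 and 2.64. urod C220R170 changed by 0.70 with an adjusted p of 0.236, and its mean was -0.80 at 53 dpf. In the heme and red cell list 0 of 15 tested probes were called higher and 6 lower between 30 and 47 dpf. The 2 called krt13 probes changed by 1.45 (C157R084) and 0.90 (C234R106), with adjusted p values of 0.0227 and 0.255, and H2-L C230R136 by 1.17 with 0.0923. Over the MHC class I list 13 of 18 tested probes were called higher between 30 and 47 dpf, with a median change of 1.1. In contrast, the mucin-like C233R057 (1.72 ± 0.74), MYH9 C095R100 (0.52 ± 0.52) and COL6A2 C233R065 (-0.83 ± 0.55) had no adjusted p under 0.05. At 35 dpf C095R100 and C233R065 had lower means (-2.73 and -1.12) than at 30 dpf (-0.92 and 0.70), so their means at 41 dpf lay closer to 30 dpf than those of 35 dpf did. The step from 30 to 35 dpf was not tested. Among the falls, TIMP2 C211R161 and C001R030 had changes of -4.06 and -2.22 between 30 and 47 dpf and pdlim3 C036R120 of -1.22, with adjusted p values of 2.47e-06, 0.000145 and 0.0353. UACA C163R156, notch 3 C261R121 and the XendoU probe C185R129 had changes of 0.51, -0.30 and -0.22 with adjusted p values of 0.518 to 0.817.

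**Figure D4:**
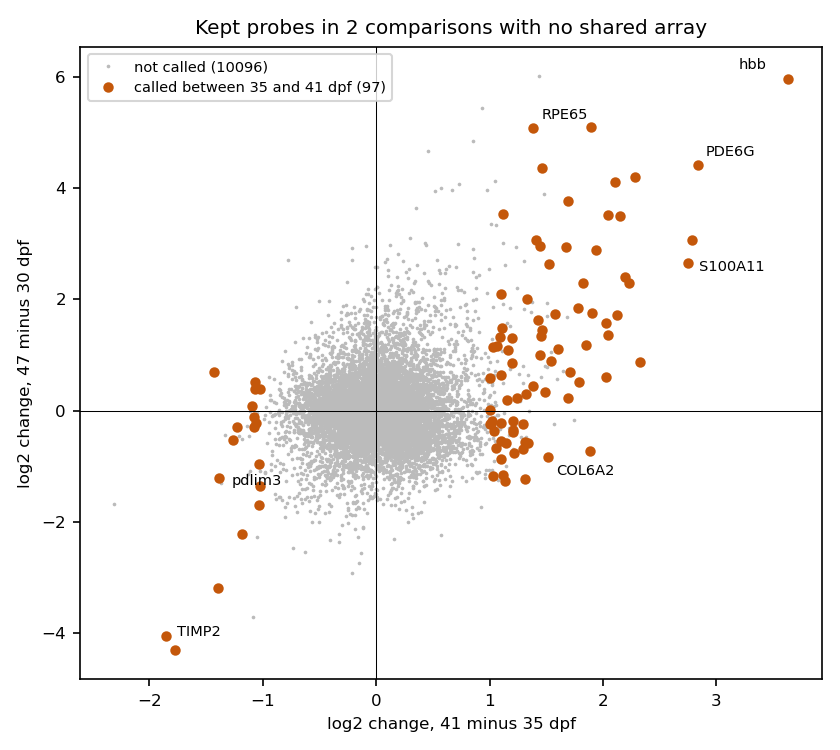
Log2 change from 30 to 47 dpf (vertical) against log2 change from 35 to 41 dpf (horizontal) for 10193 kept probes, with the 97 called between 35 and 41 dpf that have both values in orange and the rest in grey. hbb lies at 3.63 and 5.97, TIMP2 C211R161 at -1.85 and -4.06, and COL6A2 C233R065 lies at 1.51 on the horizontal axis and at -0.83 on the vertical.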

How the data were processed

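The authors quantified the scanned arrays in ImaGene and deposited, for each spot, background-corrected median signal intensities of both channels with a flag. A deposited table of log2 ratios, from GeneSpring, holds values floored at 1, Lowess-normalized and centred per probe on the median of the samples. On the 6 arrays its column medians lay between 0 and 0.016, and it correlated with the centred ratios computed here at 0.993 to 0.999 across probes, so scale and direction are settled. It served as an alternative only.

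Signals below 1 were set to 1, and log2(Cy5/Cy3) was normalized by loess within each array in limma 3.58.1 (R 4.3.3), with flagged spots given no weight and 2.35% of spots flagged. All 51 arrays entered 1 linear model with 17 day means (limma's lmFit, then eBayes), which gave the comparisons of 41 with 35 dpf and 47 with 30 dpf. Called means a 2-fold or larger change and a p no greater than 0.01, the thresholds of the methods, which did not adjust p. Adjusted p values are Benjamini-Hochberg over the 20964 probes that met the Cy5 minimum of 500 without a flag throughout any 1 of the 17 days. The fit was tested on simulated data. Arrays have no sequencing depth, and 3 individuals per day limit the precision. Separate individuals were used, so the spread includes biological variation.

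Probes have 1 spot each, and those sharing a gene name were not merged. Names come from 16 supplementary lists of the paper, some held in part. The authors' fold changes and p values in them were not used. Named probes are those with p of at most 0.01, a fold of at least 2 and no overlap (at most 12 in each direction), those with an adjusted p under 0.05, the called members of each of 20 lists (at most 4) or the 2 brightest where none was called, and probes of the same description. Other probes were named after their values were seen. Results for a few genes are not reported here, though counts over all probes, over lists and over the naming rule include them. The comparison, the lists and the tests were chosen with earlier results of these data known. The list for hatching enzymes matched no named probe. A probe under 500 on all 3 arrays of a day is given as a bound, comparing its mean with the higher of its own signal and the lowest signal among probes at 500 or more, per array, in the Cy5 channel after loess and Aquantile.

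Markers of muscle, lens, liver and the nervous system were present. At 41 dpf, 77 of 83 muscle, 12 of 13 crystallin, 16 of 26 liver and 13 of 20 nervous system probes reached 500 on all 3 arrays. At 35 dpf the numbers were 68, 11, 14 and 8. Of 6 hemoglobin probes, the markers of blood, 2 did so at 41 dpf and 0 at 35 dpf. Values and figures came from Python 3.11.15 (pandas 2.3.3, numpy 2.4.6, matplotlib 3.10.9, scipy 1.17.1).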

Additional observations from a re-analysis of the deposited data

How the results depend on the processing

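Between 35 and 41 dpf, 99 probes were called and 15 passed the adjusted threshold. Called in lists were 29, called by the naming rule 34, and 42 were also called in the same direction between 30 and 47 dpf. Requiring 500 on all 6 arrays left 24, 1, 9, 11 and 12 of these. The methods' t-test on the 6 arrays called 21 probes, 0 after Benjamini-Hochberg adjustment, with 13 in lists and 14 of the named ones. Limma on the 6 arrays alone left 1 probe at the adjusted threshold. With slide as a fixed block 3 passed it, 54 of the called probes were higher and 42 lower, 38 were among the 99, 20 named probes stayed called and 24 were also called between 30 and 47 dpf. The Cy5 channel alone gave 23 adjusted calls. Keeping flagged spots gave 26, and 66 probes also called between 30 and 47 dpf. Calls numbered 150 with 500 on 2 of 3 arrays, 57 with a minimum of 1000, 625 without a filter (373 higher, 252 lower, 65 also called between 30 and 47 dpf) and 161 at a p of at most 0.05. Median centring in place of loess moved the median of all kept probes by 0.2 and gave 107 higher and 4 lower, or 81 and 5 relative to that shift. Leaving out 1 array gave 64 to 201 called probes, 4 to 12 adjusted, and 22 to 30 of the named ones, 20 to 31 in lists and 31 to 41 also called between 30 and 47 dpf. Aquantile scaling leaves log ratios as they are. Alternatives for the background were not run, since the intensities are already corrected.

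Replicate numbers were not treated as pairs in the main fit. Deviations from the day means correlated at -0.0173, 0.177 and 0.203 for same-numbered arrays. For arrays with other numbers the correlations ran from -0.276 to 0.142. Whether the numbers mark pairs was not tested. With a replicate block 108 probes were called (91 higher, 17 lower), 97 of them among the 99, and 17 passed the adjusted threshold. Of the 34 called probes that meet the naming rule, 10 were called under every alternative that kept them and none changed sign. Of the other 24, 20 lost the call in the methods' t-test, 14 with slide as a fixed block and 20 without 1 array.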

Other observations

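Some called and named probes fell in none of the lists and are given as values, picked because they were called and not as groups. Glutathione transferases couple glutathione to foreign and oxidized compounds. Of their probes, that for glutathione S-transferase 3, C242R081, rose by 1.58 ± 0.44 and Gsta4 C253R096 by 1.10 ± 0.34 (SE, n = 3 per day), with adjusted limma p values of 0.283 and 0.384. Between 30 and 47 dpf C242R081 changed by 1.74 and C253R096 by 0.64. LARS2 C212R132, the leucyl-tRNA synthetase of mitochondria, rose by 1.02 ± 0.37 and Pet112l C217R065, an amidotransferase subunit, by 1.29 ± 0.38, with adjusted p values of 0.556 and 0.334. Between 30 and 47 dpf they changed by -0.18 and -0.69. Myoferlin (FER1L3 C146R047), a protein of membrane repair and fusion, rose by 1.20 ± 0.39, and Nmt1 C205R162, which attaches myristate to proteins, by 1.49 ± 0.45, with changes of -0.19 and 0.34 between 30 and 47 dpf. The values of the 2 days overlapped for C253R096, C217R065 and C146R047 and did not overlap for the other 3 of these 6 probes. Of the 6, all but C253R096 were kept only through 41 dpf. C140R149, which has only a match to a bacterial protein family in its description, rose by 1.45 ± 0.44, with an adjusted p of 0.363.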
